A study of Homo sapiens with 4 samples.

Results

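Aminoacyl-tRNA synthetase genes were described in RNA polymerase II (Pol II) peak lists from SK-OV-3, a long-established cell line of human ovarian cancer. The members were listed by name. They are 35 genes of the 20033 protein-coding genes among the 62663 genes annotated on the chromosomes, namely 19 genes of cytosolic enzymes, whose symbols end in 1 apart from FARSA and FARSB, and 16 genes of mitochondrial enzymes, whose symbols end in 2. All 35 symbols were found in the annotation, GENCODE release 44 on GRCh38.

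Aminoacyl-tRNA synthetases join each amino acid to the tRNAs that read its codons, the step that fixes the genetic code in translation. Separate nuclear genes encode most cytosolic and mitochondrial enzymes, while GARS1 (glycine) and KARS1 (lysine) each encode both forms. A number of cytosolic enzymes are held together in the multi-tRNA synthetase complex by the scaffold proteins AIMP1, AIMP2 and EEF1E1. Many cytosolic synthetase genes are known targets of ATF4, the transcription factor of the amino acid response, which binds with a C/EBP partner to a composite DNA element.

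The comparison addressed whether silencing RRN3, which helps RNA polymerase I to initiate on rRNA genes, was accompanied by a change in where Pol II was found on the chromatin. One group carried a lentiviral short hairpin RNA against RRN3 (shRRN3) and the control group a hairpin against the bacterial gene LacZ (shLacZ), in stable cell populations, and the methods describe several RRN3 hairpins without saying which was used for this experiment. Chromatin was immunoprecipitated with a Pol II antibody from Active Motif and sequenced on a BGISEQ-500 instrument. Each hairpin was represented by 1 Pol II library and hence 1 peak list (inputs were not used here).

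With 1 library per hairpin no difference below has a replicate check, no p-value was computed, and the counts compare these libraries and not the conditions. The shLacZ list held 4014 peaks, 3920 of them on chromosomes 1 to 22, X and Y, and the shRRN3 list held 14363, of which 14322 were on these chromosomes. Sequencing depth is unknown from peak lists, and depth was not compared between the libraries, so its part in the longer shRRN3 list cannot be told apart from that of the hairpin. RRN3 itself had 0 peaks at its start, in its body or past its end in either list, which says nothing about the silencing, since a hairpin acts on the transcript. Of 6 markers noted for the line, 1 had a peak at its start in shLacZ (PAX8) and 4 in shRRN3 (PAX8, KRT8, KRT18 and VIM), while WT1 and ERBB2 had none. Over all protein-coding genes the shares were 7.56% and 23.7%. KRT8 and KRT18 have overlapping spans and the same score at the start (120.86), so that 1 peak may be counted for both.

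The start regions of some members carry a DNA motif in common, and these are shown first. The letters TGATGNAA, the core of the ATF4 composite element, were searched on both strands from 250 bases before to 50 bases after the start in RefSeq promoter sequences of GRCh38.p14, in which 30 of the 35 members matched an entry. LARS1, VARS1, YARS1, AARS2 and VARS2 had none. In the following stretches, written 5′ to 3′ along the gene, the capitals mark the motif as it reads on the gene's strand, and the first 5 stretches run from 60 bases before the start into the first bases of the transcript.
IARS1: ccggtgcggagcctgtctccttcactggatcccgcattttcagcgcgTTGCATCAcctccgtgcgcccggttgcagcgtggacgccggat
CARS1: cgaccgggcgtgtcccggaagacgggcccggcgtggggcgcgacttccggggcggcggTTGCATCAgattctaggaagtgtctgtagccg
MARS1: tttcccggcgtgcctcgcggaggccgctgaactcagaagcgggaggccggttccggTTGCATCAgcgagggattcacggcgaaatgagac
TARS1: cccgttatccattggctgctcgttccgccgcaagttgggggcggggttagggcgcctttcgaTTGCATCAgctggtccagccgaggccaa
NARS1: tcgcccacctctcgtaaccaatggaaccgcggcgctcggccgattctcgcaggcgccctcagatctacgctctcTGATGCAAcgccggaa
AARS1: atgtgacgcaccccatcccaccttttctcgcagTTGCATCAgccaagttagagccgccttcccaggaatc
YARS2: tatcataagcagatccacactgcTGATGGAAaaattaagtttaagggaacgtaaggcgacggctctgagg

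These stretches lie at chr9:92293668-92293757 on the minus strand for IARS1 (isoleucine), chr11:3057394-3057483 on the minus strand for CARS1 (cysteine), chr12:57488008-57488097 on the plus strand for MARS1 (methionine), chr5:33440905-33440994 on the plus strand for TARS1 (threonine), chr18:57621807-57621896 on the minus strand for NARS1 (asparagine), chr16:70289657-70289726 on the minus strand for AARS1 (alanine) and chr12:32756048-32756117 on the minus strand for YARS2 (mitochondrial tyrosine). Counting the first transcribed base as 0, the motif began at -13 in IARS1, -2 in CARS1, -4 in MARS1, 2 in TARS1 and 14 in NARS1, so that it lay against the start in these 5 genes. In AARS1 it began at -187 and in YARS2 at -197. All these positions count from RefSeq starts. In each of these genes but YARS2 the annotated gene span, whose start is used for the peaks below, begins further upstream. For AARS1 the span start (chr16:70289707) lies within the printed stretch. The AARS1 stretch also holds the annotated start of DDX19B (chr16:70289663), which is read from the other strand, so this match is not particular to AARS1. All 6 cytosolic genes of the set held the form TGATGCAA or its reverse complement TTGCATCA, and YARS2 held TGATGGAA.

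The motif was present in 7 of the 30 member promoters (23.3%) against 401 of 15843 protein-coding promoters (2.53%). By group, 6 of 16 cytosolic and 1 of 14 mitochondrial promoters held it. The exact form TGATGCAA, looked at after the matches were known, was found in 6 members and in 106 of all promoters (0.669%). A match describes the letters in the window and is neither a binding site nor a cause.

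Other fixed motifs gave a mixed picture. The ETS motif CCGGAAG was found in 14 of the 30 promoters (46.7%) against 14.2% of all promoters, in 8 cytosolic and 6 mitochondrial genes. The CCAAT box (CCAAT) was found in 16 (53.3%) against 36.4%, the E-box CACGTG in 4 (13.3%; IARS1, CARS2, EARS2 and MARS2) against 8.88%, and the TATA box (TATAAA) in 1 (3.33%; GARS1) against 9.63%. The GC content of the member promoters had a median of 62% beside 62.7% over all promoters. None of the motifs contains another, and CACGTG reads the same on both strands.

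HARS1 and HARS2, the cytosolic and mitochondrial histidine enzymes, are transcribed away from each other from RefSeq starts 85 bp apart, and their promoter windows therefore share the same pair of ETS matches, which count under both genes. The stretch chr5:140691305-140691484, on the plus strand as HARS2 is read, is shown because 1 Pol II peak covered both starts, with the ETS letters in capitals.
HARS2: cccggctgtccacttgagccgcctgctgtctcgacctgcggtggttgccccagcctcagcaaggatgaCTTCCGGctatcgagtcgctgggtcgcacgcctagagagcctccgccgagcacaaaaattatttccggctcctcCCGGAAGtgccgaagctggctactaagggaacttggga

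A gene was said to have a TSS peak when the midpoint of a peak lay within 1 kb of the start of its annotated span. In the shLacZ list 6 of 35 synthetase genes had a TSS peak (17.1%, 95% interval 6.56 to 33.6%), against 7.56% of all protein-coding genes, and with peaks at or above the median shLacZ score of 66.05 alone 2 of 35 (5.71%) against 4.37%. In the shRRN3 list 25 of 35 had one (71.4%, 53.7 to 85.4%), against 23.7% of all protein-coding genes. Intervals here and below are exact Clopper-Pearson intervals, cover counting error only and treat genes as independent. The 25 genes rested on 24 distinct peaks, because HARS1 and HARS2 shared 1.

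The counts of the cytosolic and mitochondrial genes were close to each other. Among the 19 cytosolic genes 3 had a TSS peak in shLacZ (15.8%, 3.38 to 39.6%) and 14 in shRRN3 (73.7%, 48.8 to 90.9%). Among the 16 mitochondrial genes 3 had one in shLacZ (18.8%, 4.05 to 45.6%) and 11 in shRRN3 (68.8%, 41.3 to 89%). The intervals of the groups overlapped widely, which does not show that the groups are equal. Of the 7 cytosolic genes whose enzymes sit in the multi-tRNA synthetase complex (EPRS1, IARS1, KARS1, LARS1, MARS1, QARS1 and RARS1) 1 had a TSS peak in shLacZ and 5 in shRRN3, beside 2 and 9 of the 12 genes of free cytosolic enzymes. The 2 in shLacZ were FARSA and FARSB, which encode subunits of the same enzyme.

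**Figure D1:**
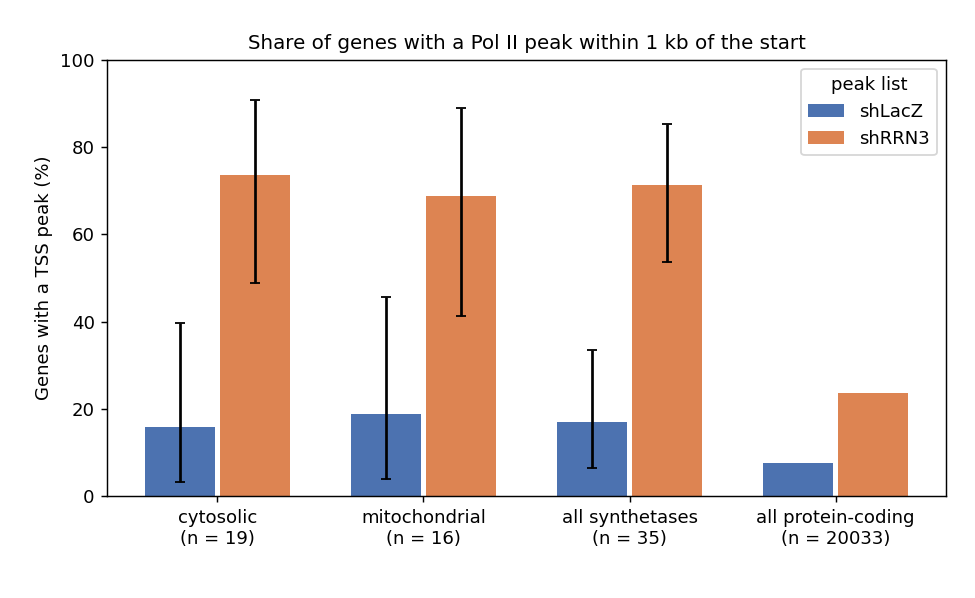
Share of genes with a Pol II peak midpoint within 1 kb of the gene start, in percent, for the shLacZ list (blue) and the shRRN3 list (orange). Bars give the cytosolic, mitochondrial and all synthetase genes with exact 95% intervals (counting error only) and all 20033 protein-coding genes without an interval. The shRRN3 bars of the synthetases stand at 68.8 to 73.7%, above the 23.7% of all protein-coding genes.

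The 6 genes with a TSS peak in shLacZ were FARSA and FARSB, the alpha and beta subunits of the cytosolic phenylalanine enzyme, RARS1 (arginine), CARS2 (mitochondrial cysteine), WARS2 (mitochondrial tryptophan) and YARS2. All 6 also had a TSS peak in shRRN3, and each shLacZ peak was overlapped by a shRRN3 peak. Of the 1514 protein-coding genes with a shLacZ TSS peak, 84.8% had one in shRRN3. The interval for 6 of 6 runs from 54.1 to 100%, too wide to tell the members from this share or to equate them. Among the 29 members without a TSS peak in shLacZ, 19 had one in shRRN3 (65.5%, 45.7 to 82.1%), against 18.7% of the protein-coding genes without one in shLacZ. None of the 35 went the other way.

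The lists also differ in length. With shRRN3 cut down to the 3920 peaks of highest score, the number that shLacZ had on the chromosomes, 13 members (37.1%) kept a TSS peak against 9.74% of all protein-coding genes. These were the cytosolic AARS1, FARSA, FARSB, HARS1 and NARS1 and the mitochondrial AARS2, CARS2, HARS2, MARS2, NARS2, RARS2, TARS2 and YARS2. RARS1 and WARS2, which had a TSS peak in shLacZ, had none in this reduced list.

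**Figure D2:**
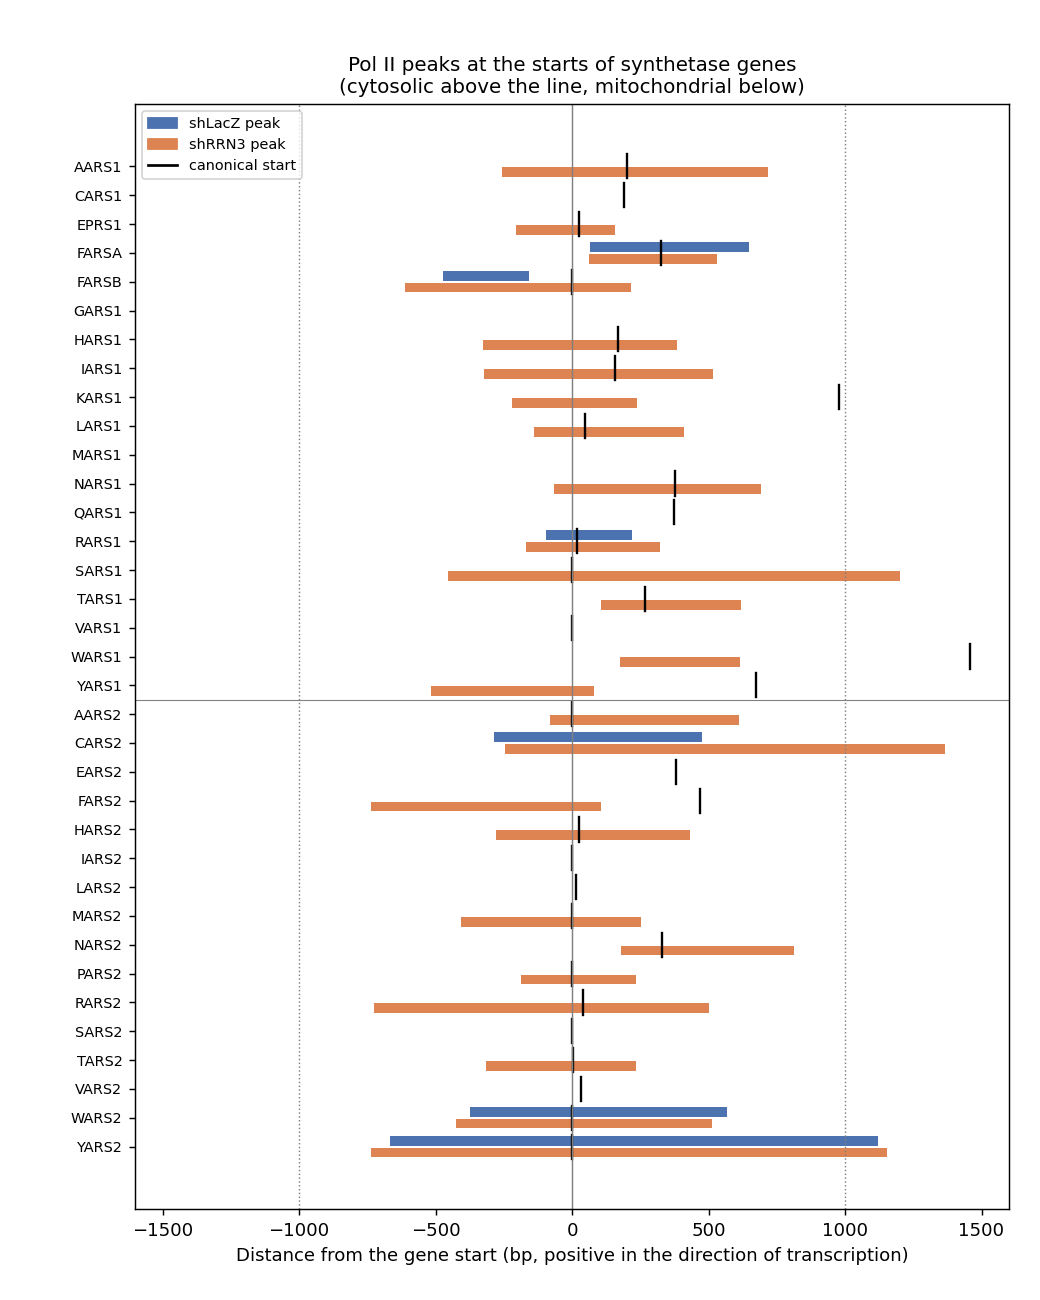
Extent of each TSS peak relative to the start of the gene span (x axis, bp, positive in the direction of transcription) for the 35 synthetase genes, shLacZ in blue and shRRN3 in orange. Black ticks mark the start of the canonical transcript where it lies within the plot, and dotted lines mark 1 kb on each side of the start. Blue bars are seen in 6 genes and orange bars in 25.

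Peak scores, which the lists give for each peak, are given with their percentile among all TSS peaks of the same list, since a score depends on sequencing depth. The lists held 1324 TSS peaks in shLacZ and 4372 in shRRN3, and a longer list can place the same peak at another percentile, so that a percentile describes a peak within its own list and no change was read between the lists. The FARSA peak scored 59.73 in shLacZ (29.2nd percentile) and 156.2 in shRRN3 (83.9th). The FARSB peak scored 58.53 in shLacZ (25.8th percentile) and 136.81 in shRRN3 (78.2nd). Both subunits of the phenylalanine enzyme thus had a peak in each list.

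The RARS1 peak scored 52.86 in shLacZ (9.37th percentile) and 97.78 in shRRN3 (58.7th). The CARS2 peak scored 54.38 in shLacZ (14.4th percentile) and 176.68 in shRRN3 (88.1st). The WARS2 peak scored 146.18 in shLacZ (92.3rd percentile) and 102.84 in shRRN3 (62.6th). YARS2 stood near the top of both lists, with 246.6 in shLacZ (97.5th percentile) and 313.06 in shRRN3 (97.6th), and had the highest score of the members in each.

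The remaining cytosolic TSS peaks were found in the shRRN3 list and covered a wide range of ranks. AARS1 scored 118.35 (71.4th percentile), HARS1 and NARS1 110.64 each (67.1st), KARS1 96.07 (57.8th) and IARS1 89.14 (52.8th). Below the middle of the list were EPRS1 (glutamate and proline, 69.57), SARS1 (serine, 68.11), WARS1 (tryptophan, 64.5), LARS1 (leucine, 62.79), TARS1 (57.4) and YARS1 (tyrosine, 55.32), at percentiles from 32.8 down to 11.4. The 3 lowest ranked members in shRRN3 (LARS1, TARS1 and YARS1) were thus cytosolic enzymes.

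Among the mitochondrial genes without a shLacZ TSS peak, RARS2 (arginine) scored 159.93 in shRRN3 (84.8th percentile), NARS2 (asparagine) 137.45 (78.3rd) and MARS2 (methionine) 127.5 (75th). HARS2 shared the HARS1 peak, AARS2 (alanine) scored 107.46 (65.2nd) and TARS2 (threonine) 105.78 (64.5th). PARS2 (proline) scored 72.81 (36.5th) and FARS2 (phenylalanine) 63.43 (24.6th), the only mitochondrial genes below the middle of the list.

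Within shLacZ, the 6 members had a median percentile of 27.5, with 2 above the 50th. Within shRRN3, the 25 gene and peak pairs had a median percentile of 64.5, with 17 above the 50th, and these medians cover different genes and lists of different length. In scores, the median of the members was 59.13 beside 69.98 over all TSS peaks in shLacZ and 104.3 beside 86.58 in shRRN3. The median widths were 670 bp for the members and 477 bp for all TSS peaks in shLacZ, and 674 and 612 bp in shRRN3. In shRRN3 the midpoints lay from -314 to 560 bp of the gene start with a median of 78 bp, and 18 of the 25 were downstream of it.

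**Figure D3:**
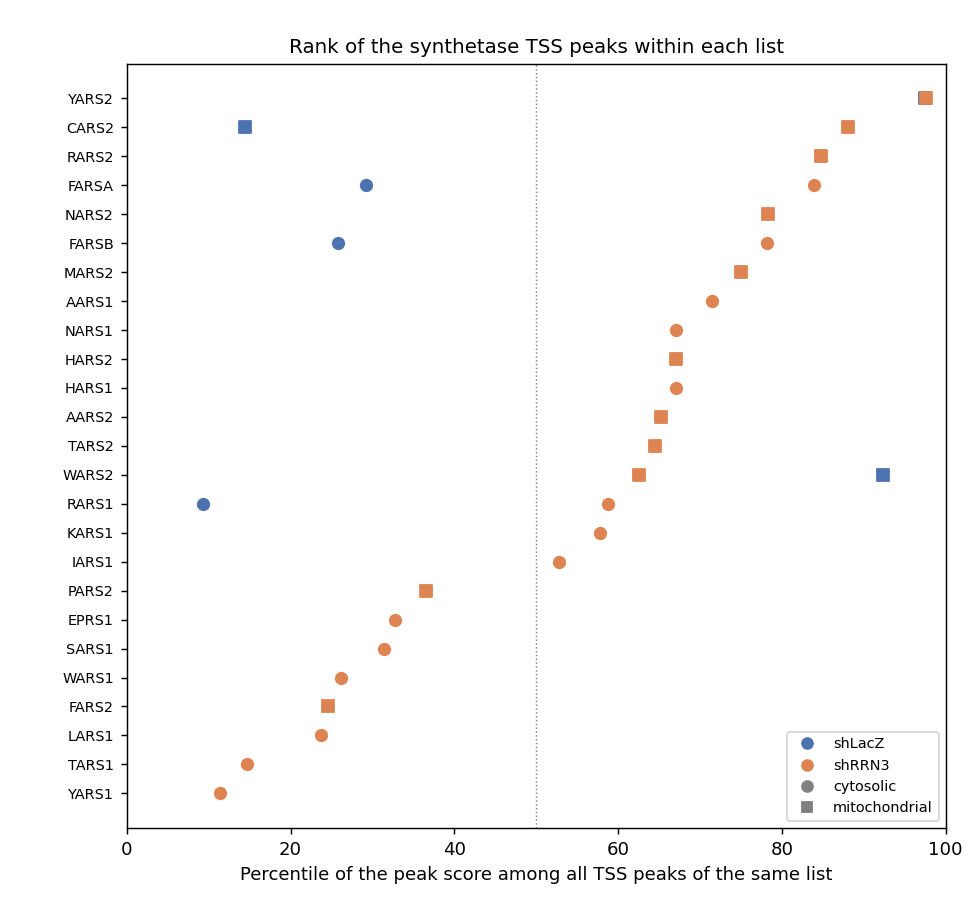
Percentile of the score of each synthetase TSS peak among all TSS peaks of its own list (x axis, 0 to 100), with shLacZ in blue, shRRN3 in orange, circles for cytosolic and squares for mitochondrial genes. The lists differ in length, so positions are read within a colour. YARS2 stands highest in each list, at 97.5 and 97.6.

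The start of the gene span is not always the start of the main transcript. The canonical start lay 14345 bp inside the span in GARS1, 12623 bp in MARS1, 7487 bp in CARS2 and 1458 bp in WARS1. Counted from the canonical start, 5 members had a TSS peak in shLacZ and 23 in shRRN3, against 8.18% and 25.4% of all genes, and the genes lost were CARS2 from both lists and WARS1 from shRRN3. GARS1 and MARS1 had no TSS peak at either start.

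In all, 10 members have the start of another protein-coding gene within 1 kb, in every case on the opposite strand, so that a peak there cannot be given to either gene. Besides HARS1 and HARS2 these are AARS1 with DDX19B (44 bp apart), KARS1 with TERF2IP (870 bp), WARS1 with WDR25 (387 bp), CARS2 with ING1 (867 bp), EARS2 with UBFD1 (10 bp), FARS2 with LYRM4 (94 bp), RARS2 with ORC3 (39 bp) and SARS2 with MRPS12 (181 bp). A shRRN3 TSS peak was found in 8 of these 10 and in 17 of the 25 members without such a neighbour. Over all protein-coding genes the share was 23.7%, and it was not split by neighbouring starts. Among the 17, some peaks also lay inside another gene. The YARS1 midpoint lay at -891 bp from the canonical YARS1 start and inside the span of S100PBP. The AARS2 midpoint lay inside the span of a further annotated gene.

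In 7 of the 25 cases the shRRN3 midpoint lay nearer to the start of the neighbour's span than to the member's canonical start. These were HARS1, KARS1, WARS1, CARS2, FARS2, HARS2 and RARS2. Since these are different kinds of start, the shared HARS1 and HARS2 peak is listed under both genes. From canonical starts alone it lay at -137 bp for HARS1 and 52 bp for HARS2, nearer to HARS2. The WARS1 peak was centred 8 bp before the start of WDR25 and at -1063 bp from the canonical WARS1 start. RefSeq places the WARS1 start elsewhere, and this peak covered the RefSeq promoter window of WARS1 (chr14:100376278-100376577). The CARS2 peak of shRRN3 (chr13:110712236-110713850) was centred 307 bp downstream of the start of ING1, a chromatin-binding tumour suppressor. KARS1 differed in that a further shRRN3 peak (chr16:75647021-75647316, score 64.41) lay 496 bp downstream of its canonical start, in intron 1, and was counted in the body because the span begins further upstream.

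The shared HARS1 and HARS2 peak (chr5:140691151-140691863) had no counterpart in shLacZ, where the nearest peak to the HARS1 start was 19.7 kb away. Its midpoint lay 30 bp downstream of the HARS1 span start and 77 bp downstream of the HARS2 start. The printed HARS2 stretch lies inside this peak.

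A body peak had its midpoint inside the gene span and more than 1 kb past the start. Body peaks were found in 2 of 35 members in shLacZ (5.71%) against 5.77% of all protein-coding genes, and in 6 of 35 in shRRN3 (17.1%) against 18.1%. With the stricter score 1 member of 35 (2.86%), YARS2, had a body peak in shRRN3 against 12.2% of all genes, and in the reduced shRRN3 list 1 against 6%. In shLacZ the body peaks were a peak in intron 1 of SARS1 (score 55.23) and a peak in intron 1 of WARS2 (84.47), and neither was overlapped by a shRRN3 peak. In shRRN3, IARS1 had a peak in intron 3 (51.12), TARS1 in intron 1 (54.54), YARS1 in intron 6 (57.67) and FARS2 in intron 2 (55.91), beside the KARS1 peak described above.

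YARS2 carried most of the body peaks, 10 of 15 in shRRN3 and 0 in shLacZ. Among all protein-coding genes 36 had more body peaks in shRRN3 and 48 had at least 10. The scores ran from 59.01 to 143.05. Only 3 of the 10 midpoints lay inside the canonical YARS2 transcript (chr12:32746544-32755897), in exon 3, in intron 4 and in the untranslated part of exon 5.

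The span of YARS2 runs 19054 bp past the end of its canonical transcript and into DNM1L, the dynamin-related gene of mitochondrial fission, which is transcribed towards YARS2 from the other strand (chr12:32679200-32745650). There, 6 of the 10 midpoints lay inside DNM1L and 1 between the ends of the genes. ChIP peaks carry no strand, so the peaks over DNM1L cannot be assigned to either gene. The highest-scoring of the 10 (143.05, chr12:32739382-32740139) lay over DNM1L.

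**Figure D4:**
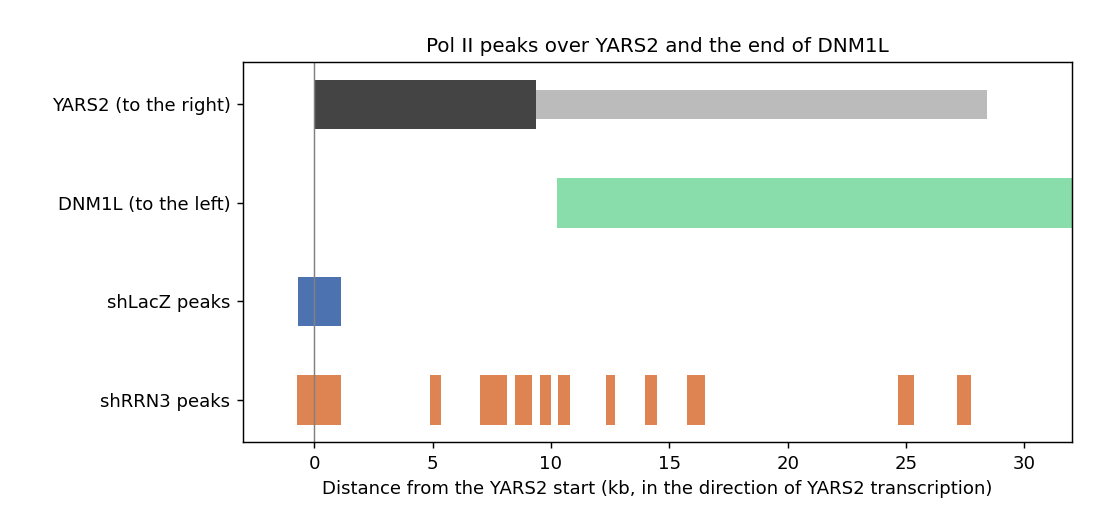
Map of the YARS2 locus with distance from the YARS2 start on the x axis (kb, in the direction of YARS2 transcription). The dark bar is the canonical YARS2 transcript, the light bar the rest of its annotated span and the green bar the part of DNM1L in view, whose 3′ end faces YARS2. The shLacZ list (blue) has 1 peak, at the start, and the shRRN3 list (orange) has that peak and 10 further peaks, 6 of them over DNM1L.

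Peaks with a midpoint up to 2 kb past the gene end were found in 0 of 35 members in shLacZ (interval 0 to 10%) against 1.26% of all protein-coding genes, and in 2 of 35 in shRRN3 (5.71%, 0.7 to 19.2%) against 4.43%. The AARS1 peak (chr16:70251765-70252118, score 81.36) was centred 41 bp past the end of AARS1 and 2 bp before the start of EXOSC6, an exosome subunit gene on the same strand whose start lies 43 bp past the end of AARS1. The HARS2 peak (chr5:140700094-140700750, score 135.48) was centred 1117 bp past the end of HARS2, inside ZMAT2, which overlaps the end of HARS2 by 626 bp. Both peaks thus lay at or in a following gene.

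No peak in any of these regions was found in either list for 10 members: CARS1, GARS1, MARS1, QARS1 (glutamine) and VARS1 (valine) among the cytosolic genes, and EARS2 (glutamate), IARS2 (isoleucine), LARS2 (leucine), SARS2 (serine) and VARS2 (valine) among the mitochondrial ones. Such an absence is a statement about the peak lists at an unknown depth and not about Pol II on these genes. For these 10 the nearest shRRN3 peak lay from 44.3 kb (MARS1) to 2531 kb (VARS2) from the start of the span. From the canonical MARS1 start the nearest shRRN3 midpoint lay 31984 bp downstream, at chr12:57520052. This is past the end of MARS1, beyond the 2 kb window and inside the span of DDIT3 (chr12:57516588-57521737). A shLacZ midpoint lay inside DDIT3 as well, at chr12:57520622. The median distance to the nearest shRRN3 peak was 0.297 kb over all 35 members and 46.8 kb over all protein-coding genes, and in shLacZ it was 184 and 228 kb.

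VARS1 and VARS2 lie in a stretch of chromosome 6 without a peak, which spans chr6:28383432-33711586 in shRRN3, measures 5.33 Mb and holds 187 protein-coding starts, more than any other of the 14298 gaps between neighbouring peaks. In shLacZ the gap at this place measured 5.56 Mb with 197 starts and was again the first of 3896. SARS2 lies in a gap of 0.954 Mb with 33 protein-coding starts in shRRN3, the 17th by that count. CARS1 lies in a gap of 1.1 Mb with 12 starts and GARS1 in one of 1.66 Mb with 13, while the gap around MARS1 measured 0.0889 Mb.

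The start regions of some of these genes occur more than once in the reference. In a scan chosen after the data were seen, the 1000 bp around each gene start was cut into 20 tiles of 50 bp, and exact copies were sought on 261 alternate sequences of the reference. VARS1 and VARS2 had copies of 20 of 20 tiles, CARS1 of 17 and NARS1 of 1, and the other members of 0. Over all protein-coding genes, 813 had copies of at least 50% of the tiles, of which 0 had a TSS peak in shLacZ and 1 in shRRN3 (0.123%), against 7.88% and 24.7% of the other 19220 genes. Without VARS1, VARS2 and CARS1, 6 of 32 members had a TSS peak in shLacZ (18.8%) and 25 of 32 in shRRN3 (78.1%). The aligner's handling of reads with several matches is not given in the sources used here, and its part in these absences was not tested.

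**Figure D5:**
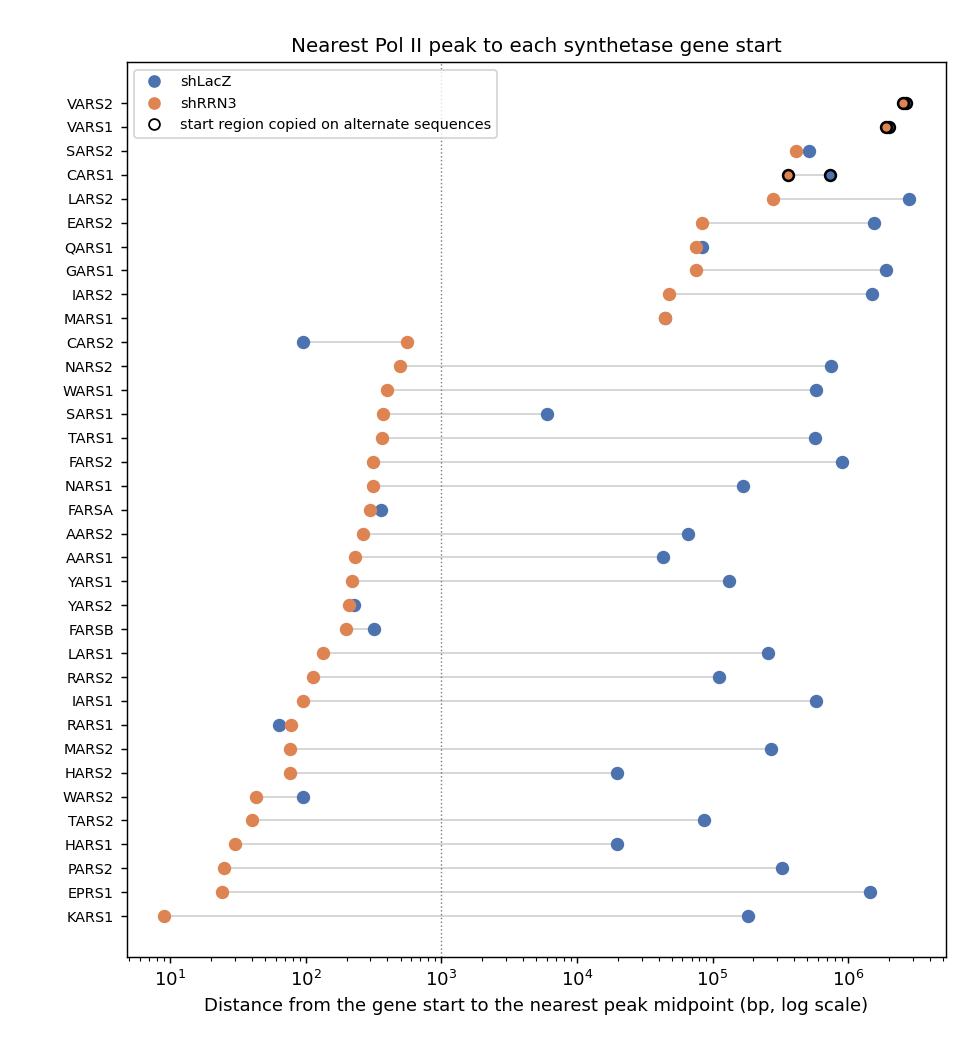
Distance from the start of each synthetase gene to the nearest peak midpoint on the same chromosome (x axis, bp, log scale), with shLacZ in blue and shRRN3 in orange. The dotted line marks 1 kb, and black outlines mark the 3 genes whose start regions are copied on alternate sequences. The 25 genes with a shRRN3 TSS peak lie left of the line and the other 10 at 44.3 kb or more.

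The genes with the ATF4 core motif fell on both sides of this split, as did the members as a whole. A shRRN3 TSS peak was found in 5 of the 7, namely AARS1, IARS1, NARS1, TARS1 and YARS2, while CARS1 and MARS1 had none. Beside this stand 25 of all 35 members (71.4%) and 23.7% of all protein-coding genes. In shLacZ YARS2 was the only one of the 7 with a TSS peak, beside 6 of 35 members (17.1%) and 7.56% of all genes. The RefSeq promoter windows as such were overlapped by a peak in 5 of 30 members in shLacZ, against 7.33% of all 15843 promoters, and in 20 of 30 in shRRN3, against 23.9%.

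Other genes of the pathway, 18 in all, were counted from fixed lists by the start of the gene span. Canonical starts were not checked for them, so a peak counted in the body can lie at the start of a main transcript. Of these 2 had a TSS peak in shLacZ and 9 in shRRN3, beside 7.56% and 23.7% of all protein-coding genes. A body peak was found in 3 and 9 (5.77% and 18.1% of all genes) and a peak past the end in 0 and 3 (1.26% and 4.43%). Among the scaffolds of the complex, AIMP1 (93.75) and EEF1E1 (68.1) had a TSS peak in shRRN3 and AIMP2 had no peak. In the mitochondrial amidotransferase, which makes glutaminyl-tRNA from a mischarged precursor, QRSL1 (121.34) and GATC (106.51) had one in shRRN3, and GATB had a body peak alone. MTFMT, which formylates the mitochondrial initiator methionyl-tRNA, had a TSS peak in both lists (57.7 in shLacZ, 116.87 in shRRN3), while PSTK and SEPSECS, of selenocysteine synthesis, had none.

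Of the proofreading genes, AARSD1 had a TSS peak in shRRN3 (80.56) and DTD1 and DTD2 had none. XPOT, the tRNA export receptor, had one in both lists (67.51 in shLacZ, 140.13 in shRRN3). EEF1A1, which delivers charged tRNA to the cytosolic ribosome, had peaks in its span counted as body peaks alone, 6 in shLacZ and 5 in shRRN3. Their highest scores were 601.51 and 2508.5. Whether any of them lay at the canonical EEF1A1 start was not tested, so a start peak is not excluded in either list. The mitochondrial counterpart TUFM had no peak. In the amino acid response, ATF4 (368.28) and EIF2AK4, the kinase that senses uncharged tRNA (297.17), had a TSS peak in shRRN3. Both also had body peaks in shRRN3, and in shLacZ each had a body peak alone (228 and 50.03). In the short ATF4 span (chr22:39519695-39522683) a small shift can move a midpoint between the classes. Overlap of these peaks between the lists was not examined. ASNS, a target gene of ATF4, had no peak in either list.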

How the data were processed

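Pol II ChIP-seq was analysed in SK-OV-3 cells from 1 peak list per hairpin. Each deposited list gives coordinates and a score per peak, called separately per library by the authors. Peak names carry MACS, and hg38 is given in the submitters' processing notes. The program version, aligner, duplicate handling, threshold and use of the input are not given in the sources used here. The deposited score was read as 10 × −log10 p, an assumption that rests on lowest values of 50.03 and 50 and a shared ceiling of 3100. It was used to rank within a list and to filter. The stricter score of 66.05 was applied to both lists. Since a score depends on sequencing depth, this filter need not be equally strict in each.

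Gene spans and canonical transcripts came from GENCODE release 44. Peaks on other sequences (94 in shLacZ and 41 in shRRN3) were left out of the gene counts. Coordinates are 1-based. Peaks were assigned by midpoint to the TSS (1 kb), the body or 2 kb past the end, and a midpoint could count for several genes. Overlap meant 1 bp shared. All 35 members could be named, together with neighbouring genes where a peak lay at their start and the pathway genes of the lists. The members, gene lists and motifs were chosen with earlier results of these data known. Promoter sequences came from RefSeq. The assignment was tested on simulated peaks. Python 3.11.15, numpy 2.4.6, scipy 1.17.1 and matplotlib 3.10.9 were used. Alternatives were other windows, starts, overlaps, a stricter score (66.05, the shLacZ median), a shRRN3 list of 3920 peaks, and wider promoters.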

Additional observations from a re-analysis of the deposited data

How the results depend on the processing

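Over 12 results and 38 alternative values, 26 stayed within 1.5 times the reported count and 12 did not. With the stricter score, 2 members (WARS2 and YARS2) instead of 6 had a TSS peak in shLacZ against 4.37% of all genes, 1 had a body peak in shLacZ against 2.61% and 1 in shRRN3 against 12.2%, while 20 kept a TSS peak in shRRN3 against 17.8%. With the reduced shRRN3 list, 13 members had a TSS peak (9.74% of all genes), 1 a body peak (6%) and 1 a peak past the end (1.76%). With 5 kb past the end, 2 members had such a peak in shLacZ (2.43% of all) and 5 in shRRN3 (8.04%), and without peaks at another gene's start 1 remained in shRRN3 (2.79%). With 500 bases on each side of the start, TGATGNAA was found in 11 of 30 promoters (7.73% of all), CACGTG in 7 (18.7%) and TATAAA in 7 (24.3%). Fewer peaks or wider windows make these counts lower or higher by construction. Of the 6 shLacZ TSS peaks, 4 were overlapped when 50% of both peaks had to be shared and 4 with the reduced list. Past the end of the canonical transcript, an alternative added after the data were seen, 3 members had a shRRN3 peak. No paired analysis was possible because only 1 library stood for either hairpin. Depth, unknown here, limits every statement about an absent peak.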
